A study of Mus musculus with 10 samples.

Results

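Lymphatic endothelium was followed through 8 genes, Prox1, Lyve1, Flt4, Pdpn, Reln, Mmrn1, Stab2 and Vegfc, taken as a list of symbols and found among the 33585 genes of the tables. Tumor-draining lymph nodes (TDLNs) of female BALB/c mice, 6 weeks of age, were profiled by bulk RNA-seq in 10 libraries, each taken here as 1 mouse. All 10 mice carried a tumor of 4T1, a mouse mammary carcinoma line, grown in the mammary fat pad and treated by microwave ablation (MWA) on day 10. The 5 mice of the MWA group were given PBS, as the study's methods state, and the 5 of the MWA+2DG group were given 2-deoxy-D-glucose (2DG), a glucose analogue that inhibits glycolysis, at 500 mg/kg by intraperitoneal injection every 2 days. Nodes were collected on day 15. Both groups therefore shared the tumor, the ablation and the injections, and no library came from a mouse without ablation, so the values bear on 2DG after MWA and not on MWA itself.

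Lymphatic vessels bring tissue fluid, antigen and migrating dendritic cells into the node, where lymphatic endothelial cells line the subcapsular, cortical and medullary sinuses. Prox1 is the homeobox transcription factor that sets and keeps lymphatic identity, and Flt4 encodes VEGFR-3, the receptor through which the growth factor Vegfc drives lymphatic growth. Lyve1 and Stab2 are hyaluronan receptors of sinus endothelium, Pdpn is the mucin-type glycoprotein bound by CLEC-2 on platelets and dendritic cells, and Reln and Mmrn1 are secreted glycoproteins typical of collecting and sinus lymphatic endothelium. Several of these genes are also used by other cells of the node, Lyve1 by some macrophages, Pdpn by fibroblastic reticular cells and Vegfc by stromal and myeloid cells.

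The level of a gene is given as FPKM, a fragment count scaled by transcript length and by the mapped total of the library, and a difference as the log2 fold change of FPKM + 1, MWA+2DG minus MWA, which understates the change of genes near or below 1 FPKM. Testing was limited to the 13334 genes that averaged 1 FPKM or more across libraries, and 7 of the 8 members were among them. Reln, at a mean of 0.389 FPKM, was below this limit and takes its difference from a fit to all 32378 genes above 0 in any library. The number of reads behind an FPKM value is unknown. In bulk tissue fewer lymphatic endothelial cells and less RNA per cell cannot be told apart.

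The promoter sequences of 3 members are shown because Prox1 and Stab2 had the most closely matched levels across libraries and Pdpn followed neither. They are the 250 bases before the RefSeq start on GRCm38.p6, read 5′ to 3′ on the gene's strand, from chr1:190170828-190171077 (minus strand) for Prox1, chr10:87007943-87008192 (minus strand) for Stab2 and chr4:143299565-143299814 (minus strand) for Pdpn. Capitals mark a match to 1 of 4 motifs searched on both strands, the SOX core ACAAT, the nuclear receptor half-site AGGTCA, the E26 core CCGGAA and the GATA motif GATAAG, and no match overlapped another.
Prox1: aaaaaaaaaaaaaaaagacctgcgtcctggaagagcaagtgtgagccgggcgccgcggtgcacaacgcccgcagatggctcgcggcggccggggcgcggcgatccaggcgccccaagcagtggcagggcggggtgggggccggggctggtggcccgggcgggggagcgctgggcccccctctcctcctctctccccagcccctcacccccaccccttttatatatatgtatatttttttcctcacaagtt
Stab2: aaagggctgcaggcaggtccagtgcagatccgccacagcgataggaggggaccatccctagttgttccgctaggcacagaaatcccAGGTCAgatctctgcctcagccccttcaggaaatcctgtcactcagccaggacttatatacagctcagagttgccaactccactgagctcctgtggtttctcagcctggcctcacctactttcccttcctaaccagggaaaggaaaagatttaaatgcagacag
Pdpn: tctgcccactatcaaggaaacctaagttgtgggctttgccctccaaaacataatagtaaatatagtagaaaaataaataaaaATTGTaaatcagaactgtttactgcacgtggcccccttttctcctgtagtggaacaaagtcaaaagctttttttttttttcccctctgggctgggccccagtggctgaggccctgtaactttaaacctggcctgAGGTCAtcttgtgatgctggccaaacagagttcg
The Prox1 window shown held 20 CpG dinucleotides at 64.8% GC and none of the 4 motifs. A second RefSeq start of Prox1 had a window with 11 CpG at 56.0% GC, also without a motif. The Stab2 window held 3 CpG at 53.2% GC with AGGTCA at -164, counted from the start, and the Pdpn window held 2 CpG at 43.2% GC with ACAAT on the opposite strand at -168 and AGGTCA at -34. AGGTCA was in 14.0% and ACAAT in 27.7% of 32851 RefSeq promoter windows of this length. Windows were found for 7 of the 8 members, Lyve1 being the exception. ACAAT was in those of Pdpn and Mmrn1, CCGGAA in that of Reln (12.0% of all windows) and GATAAG (6.55% of all windows) in none. CpG counts of Reln (37), Vegfc (30) and Flt4 (16) stood beside a median of 6 over all windows, and Mmrn1 (3) lay with Stab2 and Pdpn. A match is a description of letters and not a site.

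No member passed the test of a difference between the groups over all genes. Of the 7 tested members 0 passed an adjusted p of 0.05, as did 0 of the 13334 genes (0%), in limma with Benjamini-Hochberg adjustment, where the smallest adjusted p of any gene was 0.996. At an unadjusted P of 0.05 limma called 567 genes (4.25%) and none of the 7 members, and the Wilcoxon rank-sum test called 416 genes before adjustment and 0 after it. The groups of 5 did not overlap in 107 genes (0.802%) and overlapped in all 8 members. Counting Reln, 6 members had a lower and 2 a higher log2 value in the MWA+2DG group. The median difference of the 7 tested members was -0.03, beside 0.01 over all tested genes.

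**Figure D1:**
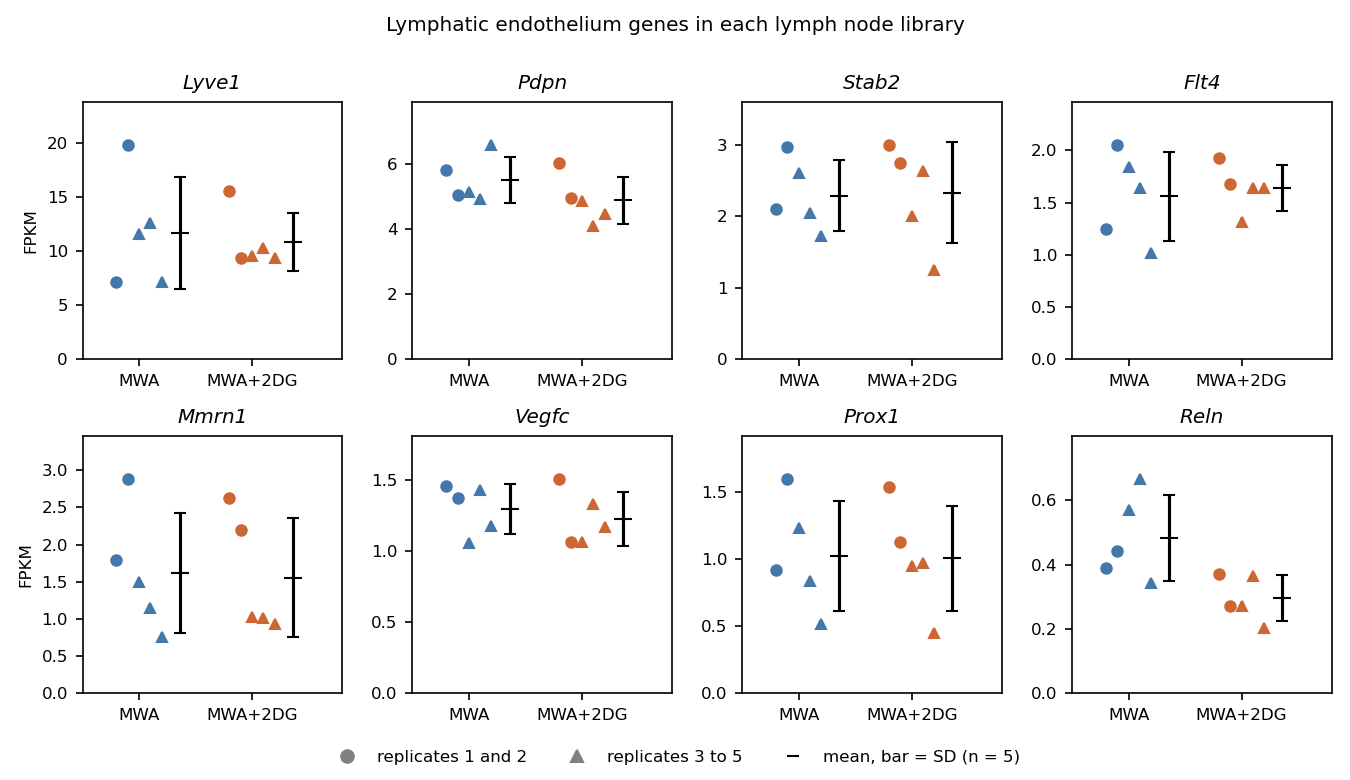
FPKM (vertical axis, starting at 0, with its own scale in each panel) of the 8 lymphatic endothelium genes in each of the 10 TDLN libraries, with panels in order of mean level. Each point is 1 mouse, circles being replicates 1 and 2 and triangles replicates 3 to 5 of either group, and the bar is the mean ± SD of 5 libraries. The points of both groups overlap in every panel, from Lyve1 at 7.10 to 19.8 FPKM down to Reln at 0.204 to 0.666 FPKM.

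Prox1, the identity factor, was low in every library. Its FPKM in the MWA group was 0.924, 1.60, 1.24, 0.842 and 0.518 in replicates 1 to 5. In the MWA+2DG group it was 1.54, 1.13, 0.953, 0.977 and 0.448. The highest value fell in the MWA group and the lowest in the MWA+2DG group, with a 3.58-fold range over all mice. The means were 1.03 ± 0.412 (SD, n = 5) and 1.01 ± 0.392 FPKM, a difference of -0.01 on the log2 scale (SE 0.17, 95% confidence interval -0.38 to 0.36), with an adjusted p of 0.999 in limma with Benjamini-Hochberg adjustment. The two-sided exact permutation test over all ways to regroup the mice gave p = 0.944, where the smallest p it allows is 0.00794. The direction of so small a value turned positive when libraries were rescaled to a common sum.

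The receptor Flt4 and its ligand Vegfc were close in level. Flt4 stood at 1.25, 2.06, 1.84, 1.64 and 1.01 FPKM in the MWA mice and at 1.92, 1.68, 1.31, 1.65 and 1.64 FPKM in the MWA+2DG mice. The MWA+2DG values lay within the range of the MWA values, and the means were 1.56 ± 0.426 and 1.64 ± 0.218 FPKM (SD, n = 5). The difference of 0.06 (95% confidence interval -0.20 to 0.32) had an adjusted p of 0.996 in limma with Benjamini-Hochberg adjustment and an exact permutation p of 0.659. Vegfc stood at 1.46, 1.38, 1.06, 1.44 and 1.18 FPKM in the MWA mice. In the MWA+2DG mice it stood at 1.51, 1.06, 1.07, 1.33 and 1.18 FPKM. Vegfc was the steadiest member, with a 1.43-fold range over the 10 mice, and its highest value was in an MWA+2DG library. Its means were 1.30 ± 0.176 and 1.23 ± 0.192 FPKM (SD, n = 5) and its difference was -0.05 (95% confidence interval -0.23 to 0.14), with an exact permutation p of 0.579.

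Lyve1 was the most abundant member and one of the more variable. It was at 7.18, 19.8, 11.6, 12.5 and 7.10 FPKM in the MWA mice. In the MWA+2DG mice it was at 15.6, 9.36, 9.51, 10.3 and 9.31 FPKM. A single library rose above the rest in each group, MWA replicate 2 and MWA+2DG replicate 1, and the other 4 MWA+2DG libraries lay within 9.31 to 10.3 FPKM. The means were 11.7 ± 5.21 and 10.8 ± 2.69 FPKM (SD, n = 5), and the difference of -0.03 had a 95% confidence interval of -0.59 to 0.52 and the exact permutation p was 0.944. The sign of this difference turned in 5 of the 10 fits that left out 1 mouse, among them the fit without MWA replicate 2 (0.17). Rescaling libraries to a common sum turned it too (0.03).

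Stab2, the other hyaluronan receptor, was at 2.10, 2.97, 2.61, 2.05 and 1.72 FPKM in the MWA mice and at 3.01, 2.75, 2.01, 2.64 and 1.24 FPKM in the MWA+2DG mice. The MWA+2DG group held both the highest and the lowest library. Means of 2.29 ± 0.495 and 2.33 ± 0.710 FPKM (SD, n = 5) left a difference of 0.00061 with a 95% confidence interval of -0.36 to 0.36, and the exact permutation p was 1.

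Pdpn was at 5.82, 5.03, 5.11, 4.93 and 6.58 FPKM in the MWA mice. In the MWA+2DG mice it was at 6.03, 4.93, 4.84, 4.10 and 4.44 FPKM. The last 3 of these lay below every MWA library, while replicate 1 was above all but 1 of them. The means were 5.50 ± 0.702 and 4.87 ± 0.729 FPKM (SD, n = 5), a difference of -0.15 (SE 0.10, 95% confidence interval -0.38 to 0.08) with an adjusted p of 0.996 in limma with Benjamini-Hochberg adjustment and an exact permutation p of 0.175. It was 0.01 among replicates 1 and 2 and -0.25 among replicates 3 to 5, and whether these differ from each other was not tested.

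Reln had the only unadjusted P under 0.05 among the members in the fits to all 10 libraries, and it did not pass the adjustment. It was at 0.388, 0.441, 0.570, 0.666 and 0.343 FPKM in the MWA mice. In the MWA+2DG mice it was at 0.370, 0.270, 0.272, 0.364 and 0.204 FPKM. The 3 lowest MWA+2DG libraries lay below every MWA library, and the other 2 lay between the lowest MWA libraries. The means were 0.482 ± 0.134 and 0.296 ± 0.0701 FPKM (SD, n = 5), a difference of -0.19 (SE 0.06, 95% confidence interval -0.34 to -0.04). The unadjusted P was 0.0162 and the adjusted p 0.990 in limma with Benjamini-Hochberg adjustment over 32378 genes, of which 1258 (3.89%) had an unadjusted P under 0.05 and 0 (0%) an adjusted p under 0.05. The two-sided exact permutation test gave p = 0.0317 over all regroupings of the mice. Exchanging labels only within replicates 1 and 2 and within replicates 3 to 5 gave an exact permutation p of 0.05, where the smallest this allows is 0.0167. Reln differed by -0.10 among replicates 1 and 2 and -0.25 among replicates 3 to 5. With 0.1 in place of 1 added to FPKM it was -0.54.

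Mmrn1, the last of the secreted members, was at 1.79, 2.89, 1.50, 1.15 and 0.755 FPKM in the MWA mice. In the MWA+2DG mice it was at 2.63, 2.20, 1.02, 1.01 and 0.932 FPKM. The groups overlapped throughout, with means of 1.62 ± 0.808 and 1.56 ± 0.797 FPKM (SD, n = 5) and a difference of -0.03 (95% confidence interval -0.56 to 0.50, exact permutation p 0.913). Its sign turned in 5 of the 10 fits that left out 1 mouse, among them the fit without MWA replicate 2 (0.12).

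**Figure D2:**
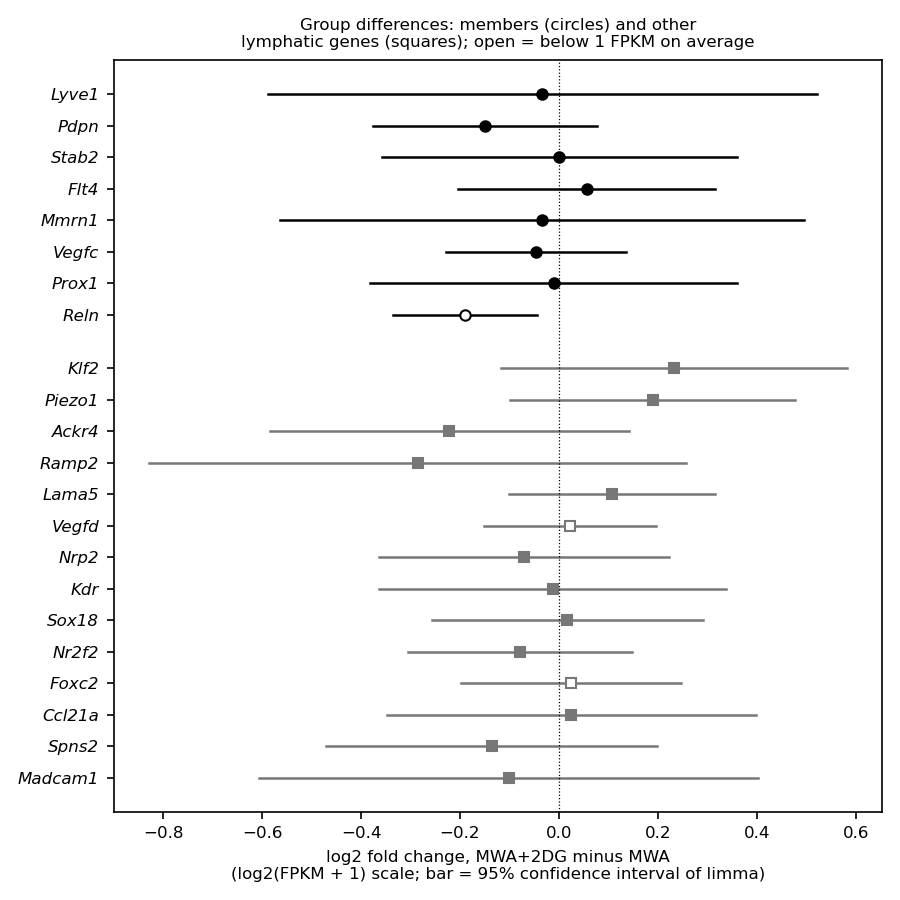
Log2 fold change of FPKM + 1, MWA+2DG minus MWA (horizontal axis), for the 8 members (black circles) and 14 other lymphatic genes (grey squares), with bars for the 95% confidence interval of limma over 5 libraries in each group. Open symbols are genes below 1 FPKM on average, and every interval except that of Reln (-0.34 to -0.04) crosses 0.

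The members covered a wide range of levels, ordered per length of transcript by their mean over the 10 libraries. Lyve1 (11.2 FPKM) exceeded Pdpn (5.18 FPKM) in 10 of 10 libraries, and Pdpn exceeded Stab2 (2.31 FPKM) in 10 of 10. Stab2 exceeded Flt4 (1.60 FPKM) in 9 of 10 libraries, with a mean log2 ratio of 0.51 ± 0.35 (SD, n = 10). Of the next 4 genes, Flt4, Mmrn1 (1.59 FPKM), Vegfc (1.27 FPKM) and Prox1 (1.02 FPKM), neighbours could not be ordered within their spread. Flt4 was above Mmrn1 in 6 libraries, Mmrn1 above Vegfc in 5 and Vegfc above Prox1 in 6. Flt4 and Mmrn1 were each above Prox1 in 10 of 10 libraries, and Flt4 was above Vegfc in 8. Prox1 exceeded Reln (0.389 FPKM) in 10 of 10 libraries, by a mean log2 ratio of 1.37 ± 0.60.

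The members varied between mice within each group. The summed FPKM of the 8 members was 36.2 in MWA replicate 2 and 32.6 in MWA+2DG replicate 1, and ran from 19.2 to 25.5 in the other 8 libraries. These 2 libraries held 6 and 7 of the 8 members among their 3 highest values, and no member among its 3 lowest. MWA+2DG replicate 5 held 6 members among their 3 lowest values, and MWA replicate 5 and MWA+2DG replicate 3 held 5 each. High and low libraries were thus found in both groups.

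**Figure D3:**
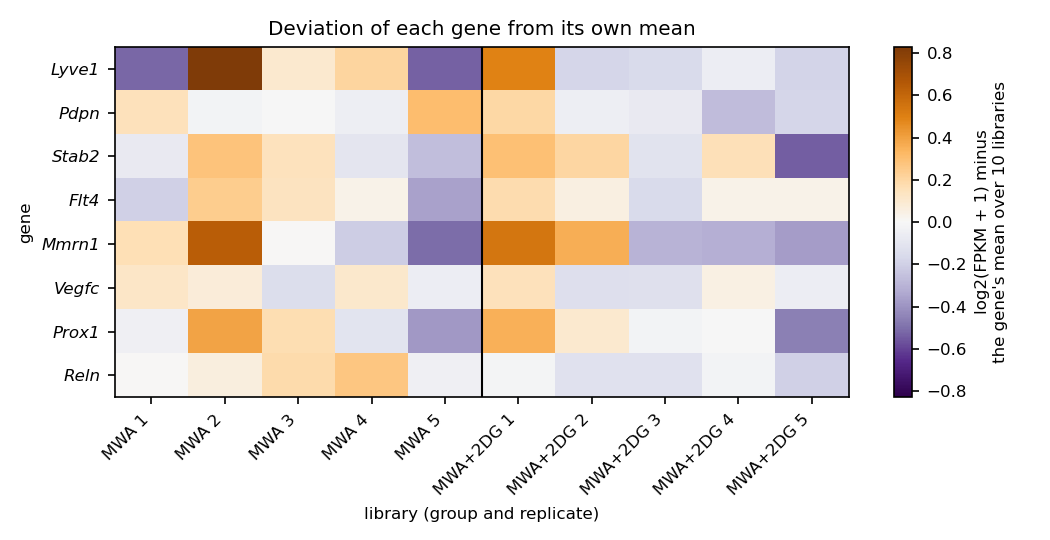
Deviation of log2(FPKM + 1) from the gene's mean over the 10 libraries (colour, orange above and purple below) for the 8 members (rows, in order of level) in each library (columns, a line separating the groups). MWA replicate 2 and MWA+2DG replicate 1 are orange in most rows and MWA+2DG replicate 5 is purple in most, while Pdpn is highest in MWA replicate 5 (6.58 FPKM) and Vegfc is pale throughout.

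Several members moved together across mice. Over 28 pairs, 3 passed an adjusted p of 0.05 for both Pearson's r and Spearman's rho of log2(FPKM + 1), Prox1 with Stab2, Lyve1 with Flt4 and Prox1 with Mmrn1. Prox1 and Stab2 had r = 0.94 over the 10 libraries (permutation p 2e-05 from 100000 resamples, adjusted 0.00056) and rho = 0.92 (permutation p 0.00049, adjusted 0.0137), and r was 0.90 without the 2 libraries farthest from the median of Prox1. Lyve1 and Flt4 had r = 0.86 (permutation p 0.00132, adjusted 0.0123) and rho = 0.85 (permutation p 0.00265, adjusted 0.0247), and r was 0.82 without the 2 libraries farthest from the median of Lyve1. Within the 6 libraries of replicates 3 to 5 alone r was 0.91 for Prox1 with Stab2 (exact permutation p 0.0167) and 0.86 for Lyve1 with Flt4 (exact permutation p 0.0375), both adjusted to 0.369. Mmrn1 separated into replicates 1 and 2 and replicates 3 to 5, so its relation is given within the 6 libraries of replicates 3 to 5, where r with Prox1 was 0.81 (exact permutation p 0.0417, adjusted 0.369) and rho was 0.71. None of the 28 pairs passed the adjustment within these 6 libraries. The share of all gene pairs with so high an r was not computed, so these relations cannot be called particular to the members. The resampling over all 10 libraries took them as exchangeable, although they fall into the replicate sets described below.

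Pairs with Pdpn, Vegfc or Reln did not pass. Pdpn had r of 0.04 with Prox1, 0.04 with Stab2, -0.16 with Lyve1 and -0.41 with Flt4, with permutation p from 0.239 to 0.925 and adjusted values from 0.569 to 0.925. Spearman's rho for the same pairs was 0.20, 0.21, -0.09 and -0.02, with permutation p from 0.562 to 0.973 and adjusted values from 0.682 to 0.973. Without the 2 libraries farthest from the median of the first gene of a pair, r became -0.20 with Prox1, 0.15 with Stab2, -0.64 with Lyve1 and 0.45 with Flt4, so these weak relations moved with single libraries. Vegfc had r of 0.20 with Flt4, 0.37 with Lyve1, 0.27 with Prox1 and 0.24 with Stab2, with permutation p from 0.292 to 0.574 and adjusted values from 0.569 to 0.717. Its rho was 0.04, 0.27, 0.05 and 0.30 in the same order, with permutation p from 0.408 to 0.918 and adjusted values from 0.570 to 0.952, and r without the 2 farthest libraries was 0.48, -0.07, 0.12 and 0.08. Reln had r of 0.28 with Flt4, 0.40 with Lyve1, 0.33 with Prox1 and 0.34 with Stab2, with permutation p from 0.257 to 0.440 and adjusted values from 0.569 to 0.648. Its rho was 0.35, 0.59, 0.36 and 0.33, with permutation p from 0.0812 to 0.349 and adjusted values from 0.207 to 0.570, and r without the 2 farthest libraries was 0.36, 0.56, 0.02 and 0.66. The printed promoter windows of Prox1 and Stab2 hold 20 and 3 CpG (11 at the other Prox1 start). Those of Stab2 and Pdpn both hold AGGTCA, as do 14.0% of all windows. A relation of these letters to the levels was not tested.

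**Figure D4:**
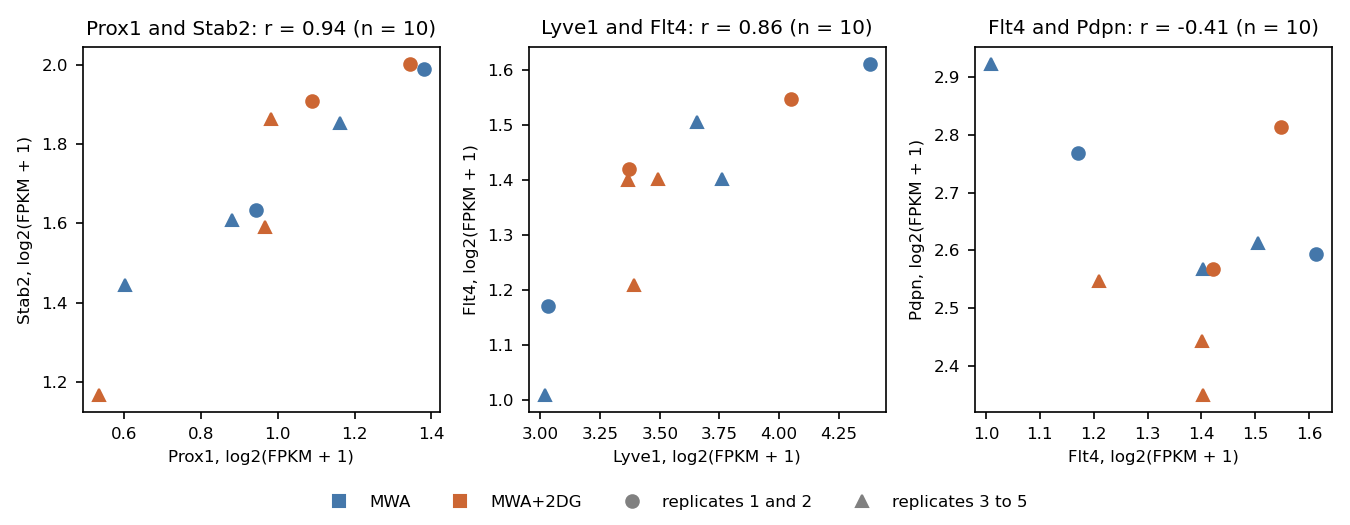
Log2(FPKM + 1) of 2 members against each other in the 10 libraries, blue for MWA and orange for MWA+2DG, circles for replicates 1 and 2 and triangles for replicates 3 to 5. Prox1 and Stab2 (left, r = 0.94) and Lyve1 and Flt4 (middle, r = 0.86) rise together in both groups, while Flt4 and Pdpn (right, r = -0.41) do not.

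The genes most like each member were sought by Pearson's r over the 10 libraries after the group means were removed, among the tested genes, as a description. Prox1 was most like Kcnj2 (r = 0.98), Ankrd13a (r = 0.98) and Spock2 (r = 0.98). Stab2 was most like Phldb2 (r = 0.99), Map3k4 (r = 0.98) and Ap1b1 (r = 0.98). Flt4 was most like Gm26724 (r = 0.96), Wdfy4 (r = 0.95) and Sipa1l2 (r = 0.94), and Lyve1 like Afg3l2 (r = 0.95), Gm16023 (r = 0.93) and 4931406C07Rik (r = 0.93). Pdpn was most like Dirc2 (r = 0.98), Gm8129 (r = 0.95) and Pdzd11 (r = 0.95), Reln like Cenpe (r = 0.97), Ulbp1 (r = 0.97) and Manea (r = 0.97), and Vegfc like Gm22581 (r = 0.97), Riok1 (r = 0.90) and Lipa (r = 0.89). For Mmrn1 the genes were Cyp39a1, Per2 and Pls3, with r of 0.98, 0.87 and 0.82 within the 6 libraries of replicates 3 to 5, group means kept. No member was among the 3 genes nearest to another, since members were left out of the search. Within the 6 libraries of replicates 3 to 5 the group means were not removed, so r there is not the same measure. It ran from 0.71 (Pdpn with Dirc2) to 0.99 (Stab2 with Map3k4), except for Vegfc with Lipa, where r was 0.24. The genes were picked by the highest r of each member with all tested genes, over 10 points that share libraries and replicate sets.

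The 10 libraries fell into replicates 1 and 2 of both groups and replicates 3 to 5 of both groups, along a first principal component that held 36.4% of the variance of all tested genes. The sets were found in the data and the labels name no batch, so the values are given without a test. Mmrn1 was at 2.38 ± 0.483 FPKM (SD, n = 4) in replicates 1 and 2 and at 1.06 ± 0.252 FPKM (SD, n = 6) in replicates 3 to 5, from 1.79 upwards in the first and up to 1.50 in the second. It was the only 1 of the 8 members whose sets did not overlap, beside 1312 (9.84%) of the 13334 tested genes. Of the 8 members 7 had a higher mean log2 value in replicates 1 and 2, with Prox1 at 1.30 ± 0.326 against 0.829 ± 0.298 FPKM and Stab2 at 2.71 ± 0.420 against 2.05 ± 0.533 FPKM (SD, n = 4 and 6). Reln was the exception, at 0.367 ± 0.0714 against 0.403 ± 0.178 FPKM. The same sets differed in hepatocyte transcripts, whose 14 listed genes summed to 9.33 to 11.9 FPKM in replicates 1 and 2 and to 92.8 to 233 FPKM in replicates 3 to 5. Alb, plasma albumin, was at up to 0.0486 FPKM in the first and at 35.1 to 102 FPKM in the second. The sum of the fibroblastic reticular list separated the sets as well, at 672 to 818 FPKM in replicates 1 and 2 and 551 to 648 FPKM in replicates 3 to 5. Cxcl13, at means of 333 and 201 FPKM, led this sum. Col1a1 (12.4 and 22.3 FPKM), Madcam1 (18.1 and 27.7 FPKM), Col3a1 (9.92 and 13.9 FPKM), Col1a2, Dcn and Bst1 went the other way. The rest of this list had the higher mean in replicates 1 and 2. Sums of the blood endothelium, high endothelial venule and macrophage lists overlapped between the sets. Pecam1 of blood endothelium (45.3 to 46.3 against 27.6 to 32.0 FPKM) and Glycam1 of the venules (452 to 804 against 158 to 359 FPKM) did not. Stab2 and Lyve1 are also made by liver sinusoidal endothelium. The 9 listed genes of liver sinusoid and Kupffer cells summed to 47.7 to 58.9 FPKM in replicates 1 and 2 and to 48.0 to 57.0 FPKM in replicates 3 to 5. Dnase1l3 (mean 22.2 FPKM) and Fcgr2b (mean 16.4 FPKM) led this sum, which need not follow its scarcer genes. Of the 9 genes Oit3, of sinusoidal endothelium, was at up to 0.106 FPKM and Clec4f, of Kupffer cells, at up to 0.0924 FPKM. Fcna, a ficolin, was at 1.19 ± 0.533 FPKM in replicates 1 and 2 (SD, n = 4) and 2.54 ± 0.750 FPKM in replicates 3 to 5 (SD, n = 6), and Dnase1l3 at 20.5 ± 0.682 and 23.4 ± 2.80 FPKM. Means of Gpr182 (5.19 and 3.58 FPKM) and Bmp2 (3.48 and 2.40 FPKM) went the other way. So did those of Clec4g (0.787 and 0.450 FPKM), Fcgr2b (17.5 and 15.7 FPKM) and Oit3 (0.0703 and 0.0379 FPKM). Ehd3 was at 4.86 and 4.88 FPKM and Clec4f at 0 and 0.0190 FPKM. The part of liver RNA in the members' values was not tested. Both sets hold both groups, in equal numbers, so the comparison of groups is balanced over them.

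The wider lymphatic program was read from 49 other genes for VEGF-C processing and signalling, transcription factors, valves, sinus subsets and their chemokine and sphingosine-1-phosphate handling. All 49 were measured and 37 were tested, of which 17 had a higher and 20 a lower value in the MWA+2DG group, with a median of -0.02. None of the 37 had an unadjusted P under 0.05 or groups that did not overlap. Differences ran from -0.47 for Marco, a scavenger receptor of medullary sinus endothelium and macrophages, to 0.23 for Klf2, the flow-responsive transcription factor. Klf2 averaged 73.7 FPKM, beside 1.02 FPKM for Prox1, and bulk values do not say which cells of the node made it.

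Among the ligands and receptors, Vegfd, the other ligand of Flt4, was at 0.134 ± 0.102 in the MWA and 0.152 ± 0.0979 FPKM in the MWA+2DG group (SD, n = 5), below the limit for testing. The co-receptor Nrp2 was at 3.48 ± 0.677 and 3.27 ± 0.681 FPKM and Kdr, which encodes VEGFR-2, at 5.54 ± 1.25 and 5.46 ± 1.15 FPKM. Ramp2, a subunit of the adrenomedullin receptor, was at 6.62 ± 3.25 and 4.97 ± 1.18 FPKM (difference -0.29, 95% confidence interval -0.83 to 0.26). The groups overlapped in each of these ligands and receptors.

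Of the transcription factors that act with Prox1, Sox18 was at 10.1 ± 0.732 and 10.4 ± 2.11 FPKM and Nr2f2 at 1.71 ± 0.259 and 1.57 ± 0.322 FPKM (SD, n = 5). Sox18 had 3 MWA+2DG libraries above and 2 below every MWA library. Foxc2, the valve factor, stayed below the limit at 0.305 ± 0.142 and 0.329 ± 0.155 FPKM. Klf2 was at 67.2 ± 9.80 and 80.2 ± 19.8 FPKM, with a 95% confidence interval of -0.12 to 0.58 for its difference. Piezo1, the mechanosensitive channel, was at 7.43 ± 1.52 and 8.51 ± 0.877 FPKM (difference 0.19) and Lama5, a basement membrane laminin chain, at 1.99 ± 0.300 and 2.22 ± 0.310 FPKM (difference 0.11). Klf2, Piezo1 and Lama5 each had 2 MWA+2DG libraries above every MWA library, and the groups overlapped otherwise.

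Of the genes for leukocyte traffic, Ccl21a, a chemokine of lymphatic endothelium and reticular cells that draws CCR7-bearing cells, was the most abundant at 1181 ± 217 and 1208 ± 281 FPKM (SD, n = 5). Its near-identical copies make its exact level uncertain. Ackr4, the scavenger of that chemokine on the ceiling of the subcapsular sinus, was at 1.64 ± 0.262 and 1.32 ± 0.610 FPKM (difference -0.22, 95% confidence interval -0.58 to 0.14), with 3 MWA+2DG libraries below every MWA library. Spns2, the exporter of sphingosine-1-phosphate, was at 10.6 ± 1.70 and 9.65 ± 2.27 FPKM, and Madcam1, an adhesion molecule of the sinus floor and marginal reticular cells, at 24.4 ± 5.25 and 23.3 ± 6.97 FPKM. Between the replicate sets, 8 of the 37 tested genes did not overlap, Adamts14, Ephb4, Tek, Hhex, Adm, Calcrl, Marco and Madcam1, named after their values were seen, beside 9.84% of all tested genes.

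Markers of neighbouring cells are given as measured facts, and their part in the members' values was not tested. The nodes expressed the lymphocyte list at 1801 to 2225 summed FPKM, led by Ighm and Cd79a, and 3 of its 9 genes had an unadjusted P under 0.05 without passing adjustment, Cd4 (0.23), Cd8a (0.28) and Ighm (-0.33), Ighm being the 1 whose groups did not overlap. Over all tested genes these shares were 4.25% and 0.802%. Of 12 tested blood endothelium genes the MWA+2DG mean was higher for 5 and lower for 7, with none at an unadjusted P under 0.05, a median of -0.01 and a sum of 165 to 220 FPKM in MWA and 152 to 344 FPKM in MWA+2DG libraries, led by Plvap and Ly6c1. The 8 genes of high endothelial venules, led by Apoe and Glycam1, had 2 higher and 6 lower (median -0.09, sums 1094 to 1520 and 857 to 1727 FPKM). The 15 genes of fibroblastic reticular cells, which also make Pdpn, had 6 higher and 9 lower (median -0.01), with Cxcl13 and Ccl19 leading sums of 571 to 818 and 551 to 759 FPKM. Of 13 tested macrophage genes, led by C1qa and Timd4, 2 were higher and 11 lower (median -0.12, sums 225 to 327 and 196 to 273 FPKM). None of the tested genes of these 4 lists had an unadjusted P under 0.05.

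All 6 tested adipocyte genes had the higher average in MWA+2DG mice (median 0.89), led by Cfd and Car3, with none at an unadjusted P under 0.05, and the list summed to 5.35 to 23.9 FPKM in MWA and 9.73 to 131 FPKM in MWA+2DG libraries. The highest sum, 131 FPKM, was in MWA+2DG replicate 5, which held 6 members among their lowest values, and the next, 74.7 FPKM, in MWA+2DG replicate 2, which held 2. MWA+2DG replicate 3 and MWA replicate 5, which held 5 each, had sums of 31.1 and 17.5 FPKM. A relation of these sums to the members was not tested. Platelets carry CLEC-2, which binds Pdpn, and 3 genes of the platelet and megakaryocyte list were tested, with 2 higher and 1 lower. The list summed to 13.5 to 18.6 and 13.1 to 19.7 FPKM, led by Itgb3 and Pf4, with Gp6 at 0 in all libraries and Ppbp at up to 0.309 FPKM. Bulk values do not say whether platelets or other cells made the tested genes. The 7 tested smooth muscle and pericyte genes (led by Des and Tagln) had 4 higher and 3 lower, the 4 tested red blood cell genes (led by Hbb-bs and Hba-a1) all lower with a median of -0.37, and the 6 tested genes of liver sinusoid and Kupffer cells (led by Dnase1l3 and Fcgr2b) 3 higher and 3 lower. Of the 14 hepatocyte genes, led by Alb and Trf, 1 was higher and 13 lower (median -0.31), and the 2 tested epithelial genes, Epcam and Krt18, and the 1 tested skeletal muscle gene, Mylpf, with Tnnt3 next in level, had differences of -0.05, 0.37 and 0.0050. None of the tested genes of these lists had an unadjusted P under 0.05. Cnn1, a smooth muscle gene below the limit for testing (mean 0.0794 FPKM), had an adjusted p of 0.990 (0.0118 unadjusted) in limma with Benjamini-Hochberg adjustment over the 32378 genes.

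**Figure D5:**
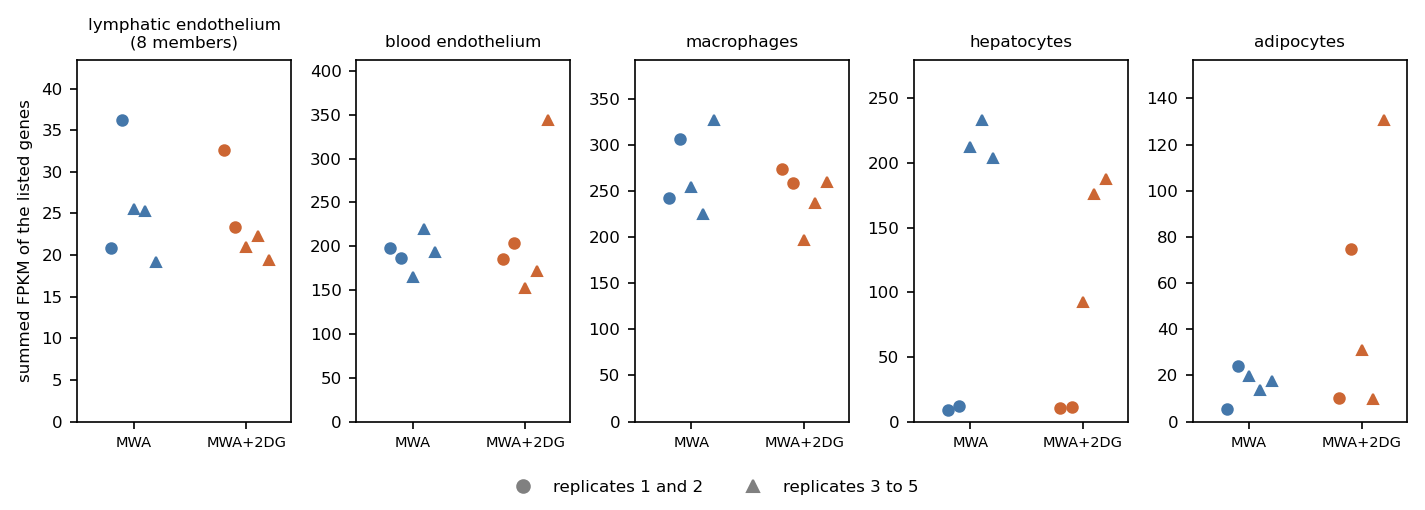
Summed FPKM (vertical axis, starting at 0, with its own scale in each panel) of the 8 lymphatic endothelium members and of 4 lists of markers of other cells, by group, with 1 point per library, circles for replicates 1 and 2 and triangles for replicates 3 to 5. The hepatocyte sum separates the replicate sets (9.33 to 11.9 against 92.8 to 233 FPKM) and not the groups, while the sum of the members (19.2 to 36.2 FPKM) overlaps between groups and between sets.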

How the data were processed

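The deposited values are FPKM, which the authors computed for every gene with StringTie and ballgown from reads passed by fastp and aligned by HISAT2. The submitters' processing notes list cutadapt 1.9, HISAT2 2.0.4, UMI-tools, StringTie 1.3.4d and mm9. FPKM keeps no read counts and low values gave no whole-read steps, so no count test was run. Libraries carry a strand mark, but the use of strand in counting, and of the molecular identifiers, is not given in the sources used. Prox1, Reln and Stab2, which antisense transcripts overlap, are uncertain to that extent.

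Of 33643 identifiers 33541 were matched to a symbol, and values of 57 shared symbols were summed. Differences in log2(FPKM + 1) were fitted in limma 3.58.1 (R 4.3.3) without covariates, as tested on simulated data, and adjusted over all tested genes. Exact permutation tests and correlations were computed with numpy 2.4.6, and ranks with scipy 1.17.1, in Python 3.11.15. The study gives 5 samples a group, and nothing in the labels says that libraries came from separate mice, so p-values measure the spread between these samples, which may be technical. The members and gene lists were chosen with earlier results of these data known. Named genes were the 8 members, the 5 lymphatic genes of smallest P with 10 named whatever their values (Ackr4 came under both), the 3 genes most like each member, and the 2 most abundant genes of each marker list with any at 0. Cd4, Cd8a, Pecam1, Oit3, Clec4f, Fcna, Cnn1 and Ppbp were named after their values were seen. So were Gpr182, Bmp2, Clec4g, Ehd3, Col1a1, Col1a2, Col3a1, Dcn and Bst1. Alternatives were another pseudocount, filters, scalings, limma-trend, the Wilcoxon test, the replicate number as a block, a term for the replicate sets, and leaving out each mouse.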

Additional observations from a re-analysis of the deposited data

Results flagged for a closer look

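Lyve1 in MWA+2DG replicate 1 was at 15.6 FPKM, far from the other 4 libraries of its group, which ran from 9.31 to 10.3 FPKM. The gap to the next value was 0.848 of the group's whole range, above Dixon's 95% critical value for 5 samples. It was the only value so marked among 44 groups of 5 over 22 genes, and chance marks about 1 in 20 groups. No other member was marked, in either group.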

How the results depend on the processing

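No member passed an adjusted p of 0.05 under any alternative (smallest 0.757, for Reln with the replicate number as a block). The count of genes past the threshold was 0 in limma and under every other setting but 1, with 0 to 1 when each mouse was left out. The 1 gene was Ighv1-26 without MWA replicate 2 (log2 fold change -1.60, adjusted p 0.0182 in limma with Benjamini-Hochberg adjustment), named after its value was seen. The 567 genes at an unadjusted P under 0.05 (218 higher, 349 lower) became 630 (454 higher, 176 lower) after rescaling to a sum of 1000000, 1258 with no filter, on 32378 genes, and 438 to 689 when a mouse was left out. Rescaling moved the median of all genes to 0.07.

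Directions of the smallest differences turned. Rescaling gave 0.025 for Prox1, 0.030 for Lyve1 and 0.00015 for Mmrn1, and the Wilcoxon test's median difference gave 0.021 for Prox1. Stab2 was -0.012 with a pseudocount of 0.1 and -0.0035 with median ratio scaling. The cause was not tested. Reln, below the filter, was left out of the adjusted Wilcoxon test, and its exact Wilcoxon p was 0.0317. Leaving out 1 mouse gave -0.11 to 0.10 for Prox1, -0.17 to 0.17 for Lyve1, -0.026 to 0.12 for Flt4, -0.17 to 0.12 for Mmrn1 and -0.074 to 0.14 for Stab2. Pdpn (-0.22 to -0.09), Reln (-0.22 to -0.15) and Vegfc (-0.09 to -0.02) kept their direction in all 10.

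The labels number the replicates of both groups 1 to 5 without saying that numbers pair mice. Deviations of same-numbered libraries correlated at 0.33, 0.50, 0.11, 0.03 and 0.15, not every one over 0.1, and not every library correlated best with its own number. With the replicate block 784 genes had an unadjusted P under 0.05 and 0 an adjusted p under 0.05. Each replicate number is present in both groups, so the block cannot change a difference, that of Reln (-0.19) included.

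The 95% confidence intervals limited the log2 differences unequally, from -0.59 to 0.52 for Lyve1, the widest, to -0.23 to 0.14 for Vegfc among the 7 tested members. FPKM hides the depth behind values near 1.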
